A study of Homo sapiens with 16 samples.

Results

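Among the 19333 genes listed for HEK293 cells, 155 fell at least 2-fold upon Top1 depletion by the rule used here, and they are described below as the falling genes. A gene was taken when its mean over the 4 RNA-seq libraries was at least 100 normalized counts, its mean in the Top1 KD libraries was at most 0.5 of its mean in the scramble libraries, and both Top1 KD libraries lay below both scramble libraries. A further 2 genes met these conditions but are set aside by the rule. The members were thus chosen from the Top1 KD to scramble contrast itself, so their fall is a description and carries no test. A mean of at least 100 was reached by 10308 genes, of which 157, the 2 set aside included, met the whole rule (1.52%). In the same genes, 3116 had both Top1 KD libraries below both scramble libraries, whatever the size of the fall (30.2%). No gene that reached both limits had overlapping libraries.

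The study asked how loss of topoisomerase 1 changes R-loops and transcription in HEK293 cells, an established human embryonic kidney line that expresses many neuronal genes. Scramble cells received a negative control RNA and Top1 KD cells received 10 nM of siRNA against Top1, in 2 rounds of transfection, with harvest 72 h after the second round and 5 days after the first. All libraries are total RNA depleted of ribosomal RNA, 2 from scramble and 2 from Top1 KD cells, and the labels describe the samples as being of different passages. Which of the study's Top1 siRNAs these libraries received is not given in the sources used here, and the R-loop and RNA polymerase II samples were not analysed here.

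Topoisomerase 1 cuts and reseals a single strand of DNA, and so releases the supercoils that build up ahead of and behind a moving RNA polymerase. Negative supercoils behind the polymerase favor R-loops, structures in which the new RNA pairs with its template strand and leaves the other DNA strand free. The enzyme also acts at promoters, where it takes part in the release of paused polymerase.

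The 4 libraries held between 14681774 and 18366226 reads on genes. TOP1 (chr20:39657458-39753127, hg19) had 1278 and 1246 normalized counts in scramble replicates 1 and 2 and 1074 and 932 in Top1 KD replicates 1 and 2. It was therefore lower in both Top1 KD libraries, at 0.795 of the scramble mean, but was not called (log2 fold change -0.33 ± 0.13 SE, adjusted p = 0.109 by limma with Benjamini-Hochberg adjustment over 13086 genes). The paper reports efficient depletion by Western blot, which measures protein, and states that RNA-seq also verified the knockdown. RNA counts do not measure the protein. TOP1MT, the mitochondrial enzyme, had 706 and 713 normalized counts in scramble and 562 and 710 in Top1 KD cells (adjusted p = 0.547, limma). Among markers of the line, VIM ranged from 789 to 1055 normalized counts and KRT18 from 401 to 531. PAX2 was low, with 50.1 and 56.3 in scramble and 82.3 and 71.7 in Top1 KD cells. Of the 5 markers tested only the keratin gene KRT8 was called, with 4071 and 3741 normalized counts in scramble and 2016 and 2575 in Top1 KD cells (adjusted p = 0.000751, limma). The listed positions of KRT8 and KRT18 overlap, and reads in the shared stretch cannot be told apart unless counted by strand. Of the markers of other cell types, HBB and ALB were at 0 in all libraries, PTPRC reached at most 7.04, and COL1A1, the only 1 of the 4 that was tested, ranged from 0.879 to 51.4 and was not called (adjusted p = 0.616, limma).

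Most of the falls were near the limit of the rule. The fall was under 2.5-fold in 84 of the 155 genes, between 2.5-fold and 4-fold in 52, and at least 4-fold in 19, of which 9 fell at least 5-fold. Their median log2 fold change was -1.30, beside 0.00 over all genes tested, and their median ratio of Top1 KD to scramble was 0.414. The falling genes lay among the genes with fewer reads. Their median scramble mean was 328 normalized counts, beside 792 over the 10308 genes, and 66.5% of them had a scramble mean under 500, beside 34.3%. The 134 genes that rose at least 2-fold by the mirrored rule had a median scramble mean of 165, and 113 of the 134 lay under 500. By the rules, scramble is the higher group of the falling genes and the lower group of the rising genes. The scramble means therefore do not compare the falling with the rising genes. Together the falling genes took 0.876% and 0.898% of the reads of the scramble libraries and 0.339% and 0.381% of those of the Top1 KD libraries. In bulk RNA, fewer cells that express a gene and less RNA per cell cannot be told apart.

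**Figure D1:**
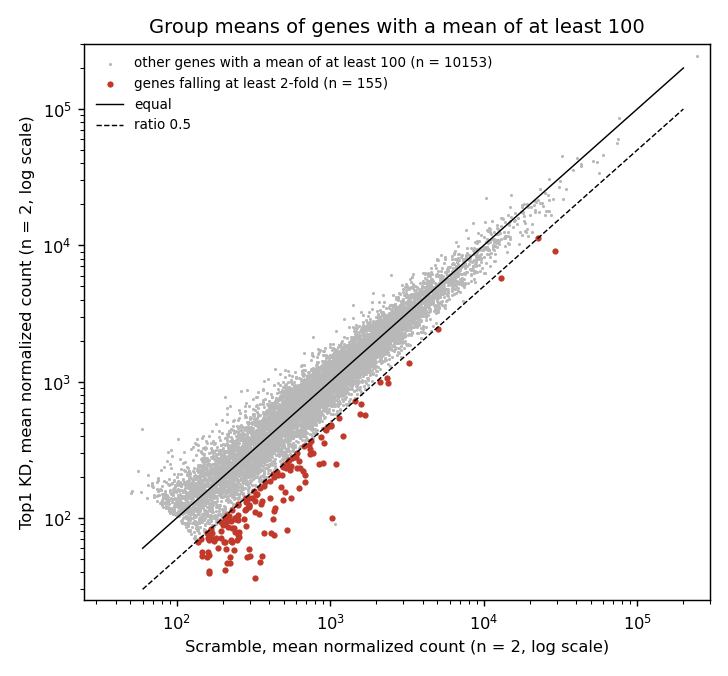
Mean normalized count in scramble (x axis) and Top1 KD (y axis) libraries, both on log scales, for the 10308 genes that reached the limit on the mean, each point 1 gene. The 155 falling genes (red) lie on or below the dashed line of a ratio of 0.5, mostly at the low end of the axis, with ZNF711, IRS4 and GLA at over 10000 scramble counts, and the 2 genes that the rule sets aside are among the grey points.

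In the limma fit over all genes, a gene was called lower at an adjusted p under 0.05 and a fall of at least 1.5-fold. All 155 genes passed the filter on low values, and 148 of them were called lower, where 4.26% of all genes tested were called lower. The rule used the same contrast, so nothing is read from that count. The 7 genes that were not called were NALF2, LRMDA, LGALS3, EIF3C, FLYWCH2, PLXNA3 and SLC24A2, with folds between 2.01 and 2.18. EIF3C, a subunit of a translation initiation factor, had 156 and 132 normalized counts in scramble cells and 11.9 and 129 in Top1 KD cells, so that 1 Top1 KD library lay just under the scramble libraries. Its log2 fold change was -0.15 without Top1 KD replicate 1 and -3.48 without Top1 KD replicate 2. It has a near-identical copy nearby, and its counts are uncertain for that reason.

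The deposited table gives transcript identifiers and positions but no names. Here 153 of the 155 genes were named from their hg19 positions, and 2 were left unnamed. The named genes were sorted by known role after their values had been seen, so the groups below are an order for reading and were given no test. The share of each role among the 10308 genes was not counted, so nothing is read from the size of a group. Values are normalized counts, written as replicates 1 and 2 of scramble and then of Top1 KD, and are not scaled for gene length, so they compare libraries and not genes. Genes named beyond the 25 largest falls are examples chosen after their values were seen.

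Promoter sequences of RefSeq (GRCh38.p14) were found for 129 of the 155 genes. The 250 bases before the start are shown for the 3 genes with the largest falls among those with a single listed start (STMN3, EPHA2 and TMEM121), for DUSP8, which holds 2 cAMP response elements, and for ZNF711, the falling gene with the most reads, which holds a TATA box. Capitals mark the GC box (GGGCGG, either strand), the cAMP response element (TGACGTCA) and the TATA box (TATAAA). The windows are chr20:63652767-63653016 (minus strand), chr1:16156070-16156319 (minus), chr14:105526855-105527104 (plus), chr11:1572272-1572521 (minus) and chrX:85243741-85243990 (plus).
STMN3: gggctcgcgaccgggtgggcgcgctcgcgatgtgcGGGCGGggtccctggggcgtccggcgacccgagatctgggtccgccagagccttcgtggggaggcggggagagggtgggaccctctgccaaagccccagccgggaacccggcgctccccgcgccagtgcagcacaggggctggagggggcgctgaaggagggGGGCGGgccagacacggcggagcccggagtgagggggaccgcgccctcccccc
EPHA2: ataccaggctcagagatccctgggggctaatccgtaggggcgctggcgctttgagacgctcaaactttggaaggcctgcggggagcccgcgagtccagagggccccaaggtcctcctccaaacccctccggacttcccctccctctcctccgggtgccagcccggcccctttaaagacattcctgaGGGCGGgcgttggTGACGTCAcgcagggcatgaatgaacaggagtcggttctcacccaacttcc
TMEM121: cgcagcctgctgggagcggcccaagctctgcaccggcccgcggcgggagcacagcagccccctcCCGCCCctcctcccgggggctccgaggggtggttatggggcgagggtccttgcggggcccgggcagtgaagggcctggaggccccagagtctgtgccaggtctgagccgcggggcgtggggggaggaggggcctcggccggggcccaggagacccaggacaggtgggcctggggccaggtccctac
DUSP8: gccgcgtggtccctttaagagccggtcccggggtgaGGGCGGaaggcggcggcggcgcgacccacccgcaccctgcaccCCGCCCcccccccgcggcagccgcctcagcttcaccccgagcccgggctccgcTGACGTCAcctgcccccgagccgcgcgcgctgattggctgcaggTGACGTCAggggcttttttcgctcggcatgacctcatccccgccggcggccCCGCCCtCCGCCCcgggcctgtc
ZNF711: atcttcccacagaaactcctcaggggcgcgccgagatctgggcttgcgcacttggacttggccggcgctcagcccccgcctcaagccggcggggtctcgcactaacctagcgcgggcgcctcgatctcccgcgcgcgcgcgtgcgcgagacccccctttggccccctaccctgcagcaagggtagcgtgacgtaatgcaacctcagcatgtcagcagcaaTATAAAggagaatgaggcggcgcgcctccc
The promoters of STMN3 and DUSP8 were 78.0% and 76.8% G and C in these windows, that of TMEM121 76.8%, that of ZNF711 66.4% and that of EPHA2 63.2%.

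Over the 129 promoters, from 250 bases before to 50 after the start, the median content of G and C was 70.0%, beside 62.7% over the 15843 protein-coding promoters of the table. The median number of CG dinucleotides in these 300 bases was 29, beside 22, and 12.4% of the promoters of falling genes held fewer than 10 of them, beside 27%. The comparison covers all coding genes, including those that HEK293 cells do not express. It was similar with the last listed start of each gene (68.0% beside 62.3%) and over genes with 1 listed start (71.3% beside 62.7%). The GC box was in 101 of 129 promoters (78.3%, beside 58.5% of all), and its letters follow the G and C content. The CCAAT box was in 40 (31.0%, beside 36.4%) and the TATA box in 11 (8.53%, beside 9.63%). The cAMP response element was in 3, those of DUSP8, EPHA2 and FSTL4 (2.33%, beside 2.59%). The AP-1 motif (TGANTCA) was in 1, that of SYP (0.775%, beside 5.75%). Of the E2F motifs, TTTCGCGC was in 1 promoter (0.775%, beside 0.814%) and TTTGGCGC in 2 (1.55%, beside 0.890%). A match describes letters in the window and was not tied to binding here.

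Genes known mainly from neurons made up 20 of the falling genes and held STMN3, the gene with the largest fall over all 4 libraries. STMN3, a stathmin that destabilizes microtubules in neurons (chr20:62271061-62284780), had 971 and 1089 normalized counts in scramble cells and 48.7 and 151 in Top1 KD cells, a 10.3-fold fall (log2 fold change -3.56 ± 0.36 SE). Both Top1 KD libraries were far below the scramble libraries, and in ratio the Top1 KD libraries differed from each other more than the scramble libraries did. The fall of STMN3 was 6.81-fold without Top1 KD replicate 1, where TMEM121 (11.45-fold) and ETV1 (7.81-fold) fell further, and 21.15-fold without Top1 KD replicate 2. ADAP1, a GTPase-activating protein for Arf6 found mainly in brain, went from 348 and 376 to 50.9 and 54.3 normalized counts, a 6.88-fold fall. PPP2R2C, a brain regulatory subunit of protein phosphatase 2A, had 289 and 300 in scramble cells and 51.9 and 65.9 in Top1 KD cells, a 5.0-fold fall. In ADAP1 and PPP2R2C the libraries of each group lay close together.

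EEF1A2, the translation elongation factor that replaces EEF1A1 in neurons and muscle, had 425 and 320 normalized counts in scramble cells and 66.0 and 89.2 in Top1 KD cells, a 4.80-fold fall. GNG4, a gamma subunit of heterotrimeric G proteins, had 1137 and 1031 against 157 and 339, a 4.37-fold fall. BRSK2, a kinase that sets neuronal polarity, had 391 and 455 against 114 and 84.3, a 4.27-fold fall. The lower Top1 KD library was replicate 1 for EEF1A2 and GNG4 and replicate 2 for BRSK2. CAMKV, a kinase-like protein of synapses, had 436 and 423 normalized counts against 82.3 and 144 (3.79-fold). JPH3, a junctophilin that ties the endoplasmic reticulum to the plasma membrane in brain, had 588 and 656 against 107 and 227 (3.73-fold). INSYN1, a protein of inhibitory synapses, had 375 and 495 against 71.4 and 164 (3.70-fold). In CAMKV, JPH3 and INSYN1 alike, replicate 1 was the lower Top1 KD library.

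ADGRB1, an adhesion G protein-coupled receptor of synapses, had 772 and 597 normalized counts in scramble cells and 198 and 173 in Top1 KD cells (3.69-fold). NAT8L, the enzyme that makes N-acetylaspartate, had 1197 and 1240 against 286 and 512 (3.06-fold). SYP, the synaptic vesicle protein synaptophysin, had 289 and 269 against 66.0 and 165 (2.42-fold). Its Top1 KD libraries lay further apart than its scramble libraries. KIF5C, a kinesin heavy chain of neurons, was near the limit of the rule, with 689 and 663 normalized counts against 282 and 390 (2.01-fold). The remaining genes of the group were PALM, NPDC1, KNDC1, BASP1, NEXMIF, HCN3 and NALF2, and the median fall of the 20 was 3.59-fold, from 2.01-fold to 10.3-fold. Among the markers of the line, NEFM, a neurofilament subunit, had 214 and 166 normalized counts against 88.7 and 120 and was not called (adjusted p = 0.0923, limma).

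Secreted ligands and factors made up 9 of the falling genes, with a median fall of 3.04-fold. METRNL and METRN, the members of the meteorin family of secreted proteins, both belonged to them. METRNL had 226 and 216 normalized counts in scramble cells and 27.1 and 66.9 in Top1 KD cells (4.71-fold). METRN had 310 and 161 against 41.1 and 75.6 (4.04-fold), with both groups spread. DLL1 and JAG2, ligands of Notch receptors, also fell by the rule. DLL1 had 299 and 193 normalized counts against 85.5 and 52.3 (3.57-fold), and JAG2 had 838 and 698 against 297 and 308 (2.54-fold). Other ligands were INHBB, the beta B subunit of activins and inhibins, with 146 and 180 against 73.6 and 33.9 (3.04-fold), and WNT3, with 246 and 231 against 97.4 and 99.8 (2.42-fold). ASIP, STC2 and GAS6 completed the group.

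The receptor group held 7 of the falling genes, and EPHA2 stood apart from the others in it. ADGRB1 (3.69-fold) and ABCC8 (3.10-fold) were sorted with the neuronal genes and the transporters. EPHA2, a receptor tyrosine kinase for ephrin-A ligands (chr1:16450832-16482582), had 424 and 275 normalized counts in scramble cells and 31.4 and 63.0 in Top1 KD cells, a 7.41-fold fall (log2 fold change -2.91 ± 0.39 SE). The other genes of the receptor group fell 2.01-fold to 2.59-fold. LGR5, a receptor for R-spondins and a marker of intestinal stem cells, had 225 and 278 normalized counts against 85.5 and 109 (2.59-fold), the largest of these. LPAR1, a receptor for lysophosphatidic acid, had 542 and 538 against 258 and 279 (2.01-fold). IL18R1, ADCYAP1R1, PLXNA3 and ADRA2C made up the rest.

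Signaling proteins of the growth factor and MAP kinase pathways numbered 6. DUSP4, a phosphatase that inactivates MAP kinases in the nucleus, had 176 and 267 normalized counts in scramble cells and 27.1 and 76.6 in Top1 KD cells (4.28-fold). DUSP8, a related phosphatase, had 159 and 165 against 76.8 and 71.7 (2.18-fold). MAPK8IP2, a scaffold of the JNK pathway, had 865 and 827 against 219 and 276 (3.42-fold). The libraries of DUSP8 and MAPK8IP2 lay close within each group, while those of DUSP4 were spread. GAREM2, RASA3 and IRS4 fell 2.20-fold, 2.03-fold and 2.01-fold.

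Regulators of transcription and chromatin were 13 of the falling genes, with a median fall of 3.03-fold. ETV1, a transcription factor of the ETS family that acts downstream of receptor tyrosine kinases (chr7:13930853-14029571), had 281 and 370 normalized counts in scramble cells and 31.4 and 41.7 in Top1 KD cells, an 8.91-fold fall (log2 fold change -3.12 ± 0.37 SE). ZNF853, a zinc finger protein, had 413 and 411 against 73.6 and 82.4 (5.28-fold). ID1, which blocks basic helix-loop-helix factors by dimerizing with them, had 529 and 453 against 163 and 110 (3.60-fold). ETV1, ZNF853 and ID1 each had Top1 KD libraries well below both scramble libraries. In ID1 the Top1 KD libraries lay further apart in ratio than the scramble libraries. BHLHE40, a repressor of the circadian and stress responses, had 383 and 302 normalized counts against 102 and 111 (3.21-fold). MAFK, a small Maf protein, had 260 and 221 against 43.3 and 115 (3.03-fold). The group also held ALX4, SMARCD3, TLE5, PHF21B, EBF4, ZNF117, ZCCHC12 and ZNF711.

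**Figure D2:**
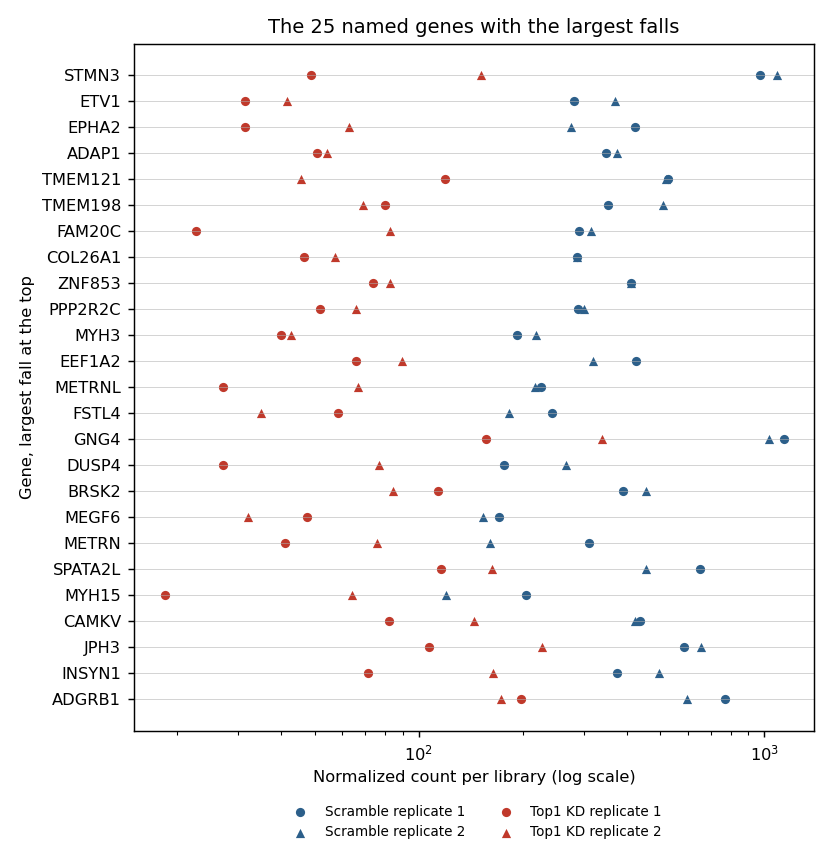
Normalized counts per library (log axis) of the 25 named genes with the largest falls, circles for replicate 1 and triangles for replicate 2, blue for scramble and red for Top1 KD. No red point reaches a blue point of its gene. The red points of several genes, among them STMN3, TMEM121, FAM20C, METRNL, GNG4, DUSP4 and MYH15, lie further apart than their blue points.

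Genes of the extracellular matrix and of adhesion were 5, with a median fall of 4.08-fold. COL26A1, a collagen chain, had 288 and 288 normalized counts in scramble cells and 46.5 and 57.2 in Top1 KD cells (5.55-fold). FSTL4, a follistatin-like protein, had 243 and 182 against 58.4 and 34.9 (4.56-fold), and MEGF6, a protein of epidermal growth factor repeats, had 171 and 154 against 47.6 and 32.0 (4.08-fold). ADAMTS2, which trims procollagen, had 333 and 383 against 116 and 151 (2.68-fold). These genes were long, with a median span of 235 kb. The 5th was CDH4, a cadherin.

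Cytoskeletal proteins and motors numbered 13, with a median fall of 2.44-fold. MYH3, the myosin heavy chain of embryonic muscle, had 193 and 218 normalized counts in scramble cells and 40.0 and 42.6 in Top1 KD cells (4.97-fold). MYH15, another myosin heavy chain, had 204 and 120 against 18.4 and 64.0 (3.93-fold), with both groups spread. FSCN1, which bundles actin filaments, had 2446 and 2313 against 856 and 1095 (2.44-fold). FLNC, a filamin, had 439 and 369 against 149 and 133 (2.86-fold). FSCN1 was among the 18 falling genes with a scramble mean over 1000.

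Genes of metabolism, protein modification and sugar transfer formed the largest named group, with 25 genes, and the falls were small, with a median of 2.21-fold and a largest of 3.35-fold (FUOM). It held several enzymes that build sugar chains, MGAT3, GALNT16, B4GALNT4, CHST3 and HS6ST3, with falls of 3.31-fold, 2.78-fold, 2.14-fold, 2.21-fold and 2.11-fold. NDUFA3 and NDUFV3, subunits of mitochondrial complex I, fell 2.39-fold and 2.14-fold. ASS1, which joins citrulline and aspartate in arginine synthesis, had 184 and 150 normalized counts against 60.6 and 82.4 (2.33-fold). Transporters numbered 8, from SLC7A11 at 2.11-fold to SLC9C1 at 3.54-fold. ABCC8, the sulfonylurea receptor of potassium channels, had 192 and 182 normalized counts against 53.0 and 67.9 (3.10-fold).

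The proapoptotic BH3-only genes PMAIP1 and HRK were both among the falling genes. PMAIP1, which encodes NOXA, had 1730 and 1405 normalized counts in scramble cells and 510 and 640 in Top1 KD cells (2.73-fold). HRK had 228 and 253 against 56.3 and 144 (2.40-fold). The histone genes H4C4 and H2BC13, both of the replication-dependent kind, had 212 and 201 against 56.3 and 125 (2.28-fold) and 935 and 1101 against 372 and 580 (2.14-fold). Histone genes are near copies of each other, and their counts from uniquely mapped reads are uncertain.

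A further 43 genes had other or little known roles. TMEM121 and TMEM198, transmembrane proteins, had 525 and 518 normalized counts against 119 and 45.6 (6.34-fold) and 352 and 509 against 80.1 and 68.8 (5.79-fold). FAM20C, the kinase of secreted phosphoproteins, had 290 and 315 against 22.7 and 82.4 (5.76-fold). In FAM20C the Top1 KD libraries lay further apart in ratio than the scramble libraries. SPATA2L had 653 and 456 normalized counts against 116 and 163 (3.98-fold). PAXX, a factor of DNA end joining, had 1069 and 739 against 267 and 237 (3.58-fold).

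**Figure D3:**
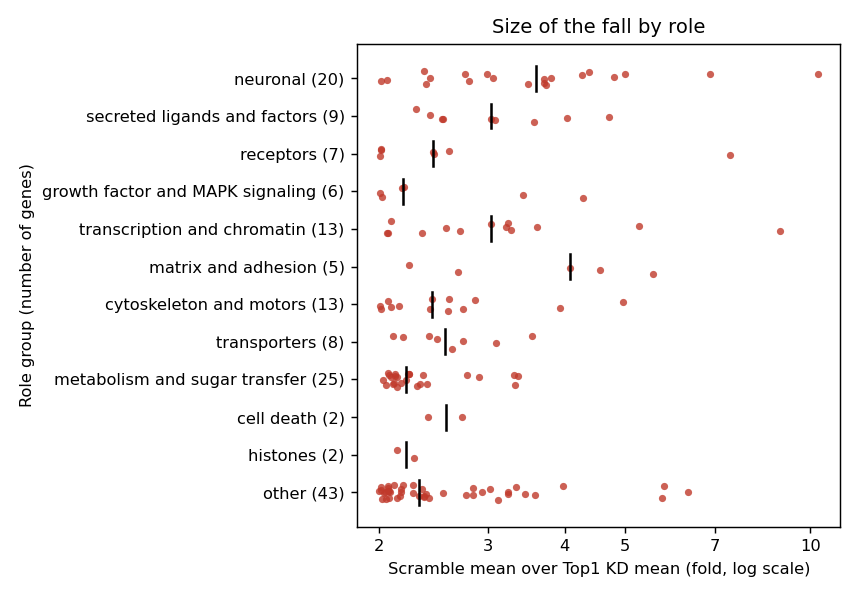
Scramble mean over Top1 KD mean (fold, log axis) of the 153 named genes by role, each point 1 gene and each black bar the median of its group, with the number of genes in parentheses and points spread vertically at random. The highest medians are those of matrix and adhesion (4.08-fold, 5 genes) and neuronal genes (3.59-fold, 20 genes), and every group holds falls under 2.5-fold.

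The falling genes with the most reads were ZNF711, IRS4, GLA, CUL4B and BRI3BP, of which all but BRI3BP are on the X chromosome. ZNF711, a zinc finger protein that recruits a histone demethylase (chrX:84498997-84528366), had 28002 and 30331 normalized counts in scramble cells and 8410 and 9653 in Top1 KD cells, a 3.23-fold fall (log2 fold change -1.69 ± 0.09 SE). IRS4, an adaptor of the insulin receptor family, had 21167 and 24196 against 10992 and 11580 (2.01-fold). GLA, the lysosomal alpha-galactosidase, had 13276 and 12658 against 5646 and 5937 (2.24-fold). In ZNF711, IRS4 and GLA the libraries of each group lay close together. CUL4B, a scaffold of ubiquitin ligases, had 4990 and 5128 normalized counts against 2160 and 2736 (2.07-fold), and BRI3BP had 3237 and 3266 against 1379 and 1370 (2.37-fold).

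At the ratio limit, the members just inside were LIMD2, IRS4 and ADRA2C, with ratios of Top1 KD to scramble of 0.4996, 0.4976 and 0.4975. The genes just outside were PASK, AGTR1 and RMI1, with ratios of 0.5005, 0.5006 and 0.5011. At the limit on the mean, ZC3H12B, BICDL1 and MEGF6 were just inside at means of 100.02, 100.99 and 101.07, and PLXNB1, DHFR2 and CEP19 just outside at 99.959, 99.188 and 98.778. Below a mean of 100, 706 genes met the other conditions, so the number of falling genes depends on that limit. It was 251 with a mean of at least 50 and 90 with a mean of at least 200.

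The Top1 KD replicates were not alike for these genes. Top1 KD replicate 1 was the lower library in 105 of the 155 genes (67.7%), beside 49.7% of the 10308 genes. In the 134 genes that rose at least 2-fold by the mirrored rule it was the lower Top1 KD library in 50 (37.3%). Replicate 1 was thus more often the Top1 KD library further from scramble in both sets, and both rules used these values. For the falling genes the median ratio to the scramble mean was 0.371 in replicate 1 and 0.422 in replicate 2. The Top1 KD libraries differed at least 1.5-fold from each other in 48 genes (31.0%, beside 7.48% of the 10308 genes), and the scramble libraries in 11 (7.10%, beside 4.19%). In the rising genes, where scramble is the lower group, the Top1 KD libraries differed so in 20 (14.9%) and the scramble libraries in 30 (22.4%). A gene with low Top1 KD counts has larger counting error in those libraries, and the part of that error in these shares was not tested. The smallest ratios of replicate 1 to replicate 2 were those of EIF3C, CFAP221 and FAM20C and the largest those of LRMDA, TMEM121 and PALM. CFAP221, a protein of cilia, had 173 and 149 normalized counts in scramble cells and 18.4 and 95.0 in Top1 KD cells. LRMDA, a leucine-rich repeat protein of melanocytes, had 192 and 196 against 134 and 52.3, so that its replicate 1 was the higher Top1 KD library.

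Both Top1 KD libraries were at most 0.5 of the scramble mean in 104 of the 155 genes, and the higher Top1 KD library was at most 0.5 of the lower scramble library in 81. When the ratio was taken without a library, 286 genes met it without Top1 KD replicate 2, of which 141 were among the 155, and 190 without Top1 KD replicate 1, of which 117 were among them. Without scramble replicate 1 the number was 148 and without scramble replicate 2 it was 183, each with 124 of the 155.

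**Figure D4:**
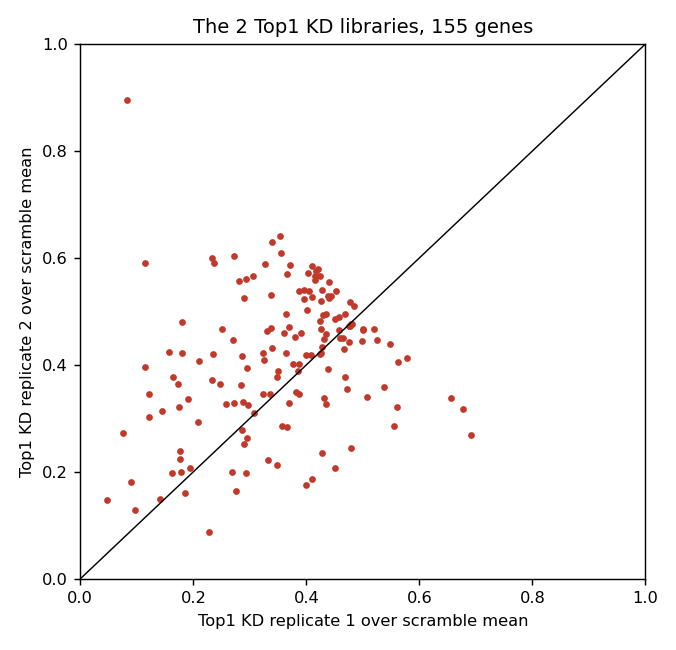
Top1 KD replicate 1 (x axis) and replicate 2 (y axis) of the 155 falling genes, each over the scramble mean of its gene, with the line of equality. Most points (105 of 155) lie above the line, where replicate 1 is the lower library, and the point at the upper left is EIF3C.

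The position of the genes was not used by the rule. Within 2 Mb of the outermost gene listed for their chromosome lay 29 of the 155 falling genes (18.7%), beside 764 of the 10308 genes that reached the limit on the mean (7.41%) and 3 of the 134 genes that rose at least 2-fold by the mirrored rule (2.24%). Within 1 Mb the shares were 12.3% and 4.08%, and within 5 Mb they were 29.0% and 13.6%. Put the other way, 3.8% of the genes within 2 Mb of an end fell by the rule and 1.32% of the genes further in. Distances were measured to the outermost listed gene because chromosome lengths were not used, and on the short arms of the acrocentric chromosomes that gene is near the centromere.

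The 29 genes were spread over 15 chromosomes. METRNL, TMEM121 and FAM20C were themselves the outermost listed genes of chromosomes 17, 14 and 7. STMN3 and EEF1A2 lay 623 kb and 777 kb from the last gene of chromosome 20, ADAP1 745 kb from the first gene of chromosome 7, and DLL1 294 kb from the last gene of chromosome 6. Of the 25 named genes with the largest falls, 9 were within 2 Mb. The remaining ones of the 10308 genes that lie near the ends also lay lower than the others. With the falling genes left out, their median log2 fold change was -0.10 within 2 Mb and 0.03 elsewhere. The share of falling genes within 2 Mb stayed between 15.4% and 21.6% when a library was left out of the rule, and was 24.7% for the 81 genes that met the stricter ratio. Genes are not replicates, and no test was made.

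**Figure D5:**
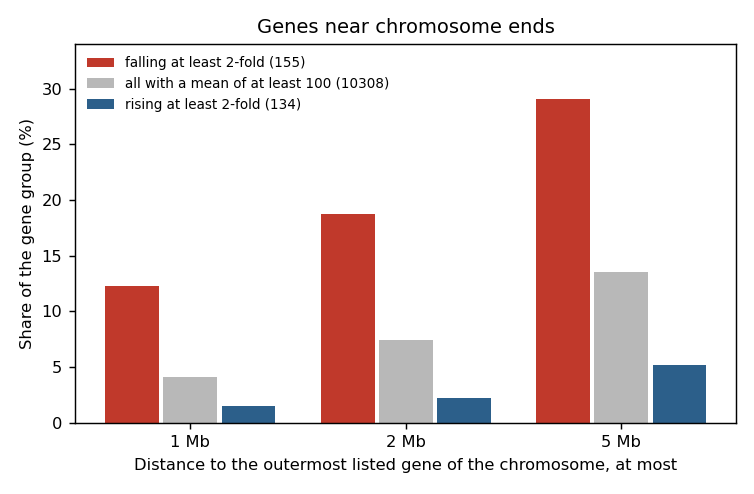
Share of genes (y axis, %) within 1, 2 and 5 Mb of the outermost listed gene of their chromosome, for the 155 falling genes (red), the 10308 genes that reached the limit on the mean (grey) and the 134 genes that rose at least 2-fold (blue). At each distance the red bar is the highest and the blue bar the lowest, at 18.7%, 7.41% and 2.24% for 2 Mb.

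By chromosome, the share of the 10308 genes that fell was highest on the X chromosome, with 11 of 348 (3.16%), then on chromosome 7, with 14 of 515 (2.72%), and chromosome 20, with 7 of 268 (2.61%), beside 1.5% over all chromosomes. Among the autosomes it was lowest on chromosomes 6 and 12, with 5 of 561 (0.891%) and 5 of 559 (0.894%), and none of the 12 mitochondrial genes was a falling gene. Of the 14 on chromosome 7, ETV1, ADAP1, FAM20C, COL26A1 and ZNF853 were among the 25 largest falls. For 2 of the 155 falling genes (1.29%) the nearest listed gene was itself a falling gene, beside 0.815% of the 10308 genes. The 1.29% rests on 1 pair, and nothing is read from it. That pair was NDUFA3 and TFPT on chromosome 19, convergent genes whose ends overlap by 555 bases. NDUFA3 had 177 and 209 normalized counts in scramble cells and 54.1 and 108 in Top1 KD cells, and TFPT had 235 and 226 against 133 and 95.0. Reads in the shared end cannot be told apart unless counted by strand. Other falling genes less than 100 kb apart were NPDC1 and SAPCD2, PAXX and NPDC1, PAXX and SAPCD2, PSTPIP2 and HAUS1, and BRSK2 and DUSP8, with 1, 4, 6, 1 and 1 listed genes starting between them.

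The span of the falling genes, from start to end in the table, had a median of 27.3 kb, beside 34.1 kb over the 10308 genes and 28.8 kb for the genes that rose. Its quartiles were 11.4 kb and 70.0 kb. Under 5 kb were 18 genes (11.6%, beside 7.58%) and over 100 kb were 29 (18.7%, beside 20.8%). The longest were LRMDA, at 775 kb, and HS6ST3, at 743 kb. HS6ST3, a sulfotransferase of heparan sulfate, had 2092 and 2125 normalized counts in scramble cells and 1007 and 995 in Top1 KD cells.

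Of the lists of pathway genes, only that of the amino acid and endoplasmic reticulum stress response held a falling gene. SLC7A11, the cystine transporter, had 818 and 631 normalized counts in scramble cells and 344 and 343 in Top1 KD cells (2.11-fold). Over all lists, 83 of 86 genes were matched to a row, 79 were tested, 10 were called lower and 1 higher, where 4.26% of all genes tested were called lower, 3.88% higher and 8.15% in either direction. The lists were chosen with earlier results of these data known, so their shares are a description. In the stress response list 4 of 10 genes were called lower. Besides SLC7A11 these were ATF4, the factor at the center of that response (log2 fold change -0.63 ± 0.11 SE, adjusted p = 0.00128), DDIT3 (-0.93 ± 0.28, adjusted p = 0.033) and ASNS, which makes asparagine (-0.60 ± 0.15, adjusted p = 0.0155, all by limma). The median log2 fold change of the list was -0.55, beside 0.00 over all genes tested, while TRIB3 (0.174) and HSPA5 (0.169) were not lower. In limma fits without 1 library, all 4 calls were lost without scramble replicate 1 (adjusted p = 0.0585 for ATF4, 0.1 for SLC7A11, 0.224 for ASNS and 0.375 for DDIT3), DDIT3 and ASNS without scramble replicate 2 (adjusted p = 0.111 and 0.101), DDIT3 and ASNS without Top1 KD replicate 1 (adjusted p = 0.0624 and 0.126), where ATF4 was under 1.5-fold (log2 fold change -0.52), and DDIT3 without Top1 KD replicate 2 (adjusted p = 0.13).

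In the immediate early list, 3 of the 11 genes tested were called lower, JUNB, ATF3 and DUSP1, with log2 fold changes of -2.03 ± 0.56, -0.92 ± 0.25 and -0.84 ± 0.21 SE (adjusted p = 0.024, 0.0207 and 0.0151, limma). JUNB had 90.7 and 95.9 normalized counts in scramble cells and 16.2 and 30.0 in Top1 KD cells, under the mean that the rule asks for, and DUSP1, a phosphatase of the family of DUSP4 and DUSP8, had 674 and 478 against 344 and 292, above the ratio that it asks for. Among the replication and S phase genes 1 of 19 was called lower (E2F2), among the mitosis genes 1 of 8 (AURKA), among the cholesterol synthesis genes 1 of 10 (INSIG1, which DESeq2 did not call, adjusted p = 0.36), and among the G1 genes and cell cycle inhibitors 0 of 10. None of these 10 was called higher either, by limma, edgeR or DESeq2, while at an unadjusted p under 0.05 by limma 1 was lower and 2 were higher. Among them RB1 was higher at an adjusted p of 0.0156 by limma but stayed under 1.5-fold. In the replication and mitosis lists, MCM7, MCM10, CDC45 and AURKB were lower at an adjusted p under 0.05 by limma but stayed under 1.5-fold. The same held for JUN of the immediate early list, HMGCS1 and IDI1 of cholesterol synthesis and PSAT1 of the stress response. None of the 11 topoisomerases and R-loop enzymes was called lower by limma, edgeR or DESeq2, while 5 were lower at an unadjusted p under 0.05 by limma. RNASEH1, 1 of the 5, was also lower at an adjusted p of 0.0227 by limma but stayed under 1.5-fold (log2 fold change -0.54 ± 0.15 SE). The share of all genes tested that passed an unadjusted p under 0.05 was not counted, so nothing is read from the unadjusted counts. Of these 11, TOP3B was called higher (log2 fold change 0.70 ± 0.20 SE, adjusted p = 0.0292, limma). By limma without 1 library, TOP3B remained called only without scramble replicate 2 (adjusted p = 0.407 and 0.161 without scramble and Top1 KD replicate 1, and 0.0941 without Top1 KD replicate 2). ATF3 was lost without each library in turn (adjusted p from 0.057 to 0.253). JUNB was lost in all but the fit without Top1 KD replicate 2 (adjusted p from 0.0889 to 0.214), and DUSP1 in all but that without scramble replicate 2 (adjusted p from 0.0565 to 0.313). INSIG1 was likewise called only without Top1 KD replicate 2 (adjusted p otherwise from 0.12 to 0.216). E2F2 was lost without scramble replicate 1 (adjusted p = 0.123), and AURKA was called in each of these fits.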

How the data were processed

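Total RNA-seq of HEK293 cells was used (2 scramble and 2 Top1 KD libraries), and the other 12 samples of the series were not analysed here. The authors trimmed single-end reads, mapped them with TopHat2 (2.0.5 in the submitters' processing notes, with hg19, HTSeq and DESeq2) and kept unique reads. Whether reads were counted by strand is not given in the sources used here. The deposited values per library are a signal, made by the authors by dividing each read count by the DESeq2 size factor of its library. The authors also deposited their own comparison, with log2 fold changes, a test score and p-values, which was not used. In every library 100% of values were whole reads within 0.1 read, and 0 per-library columns lacked a sample.

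The fit used limma 3.58.1 (R 4.3.3) with a mean-variance trend on log2(normalized count + 1), for the 13086 genes that reached 10 normalized counts in 2 or more libraries, with Benjamini-Hochberg adjustment. The pseudocount understates changes of low genes. edgeR 4.0.16 and DESeq2 1.42.0 on the recovered reads were alternatives, beside those on pseudocount, scaling, filter, limits, replicate block and libraries.

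The members, lists, motifs and naming rule were chosen with earlier results of these data known. The genes named were TOP1, TOP1MT, the 25 named members with the lowest ratios, the 5 with the highest scramble means, those at the limits, those with extreme replicate ratios, neighbors and list members. Names came from known hg19 positions. All 153 lay on the chromosome that RefSeq (GRCh38.p14) gives for the name, the strand was the same for the 129 with a listed strand, and 127 had a span within 25% of RefSeq's. MCM4, NR4A1 and MYC of the lists, and the marker NEFL, were left unmatched. Differences between libraries cover the spread of 2 libraries per group.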

Additional observations from a re-analysis of the deposited data

How the results depend on the processing

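The number of genes called (1066) stayed within 1.5 times under other filters, pseudocounts, scaling, edgeR (1089) and DESeq2 (1098), with 138 to 149 of the 155 falling genes called lower. Library-size scaling turned the split from 558 lower and 508 higher to 513 lower and 589 higher. A fold threshold of 2 called 340 genes. Counted by a change of 1.5-fold alone, 3008 genes passed with all libraries and 3130 and 3375 without scramble replicate 1 and 2, and 3059 and 3657 without Top1 KD replicate 1 and 2. Alternatives added after the data were seen called 316 and 424 genes by limma without scramble replicate 1 and 2, and 572 and 1329 without Top1 KD replicate 1 and 2, where the lone library is assumed to vary like the others. Of the 155 falling genes these fits called 55, 65, 100 and 133 lower, beside 148 with all libraries.

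The number of falling genes was 251 at a mean of at least 50, 90 at 200, 81 at the stricter ratio, and 148 to 286 without 1 library, the highest without Top1 KD replicate 2. The share with a falling gene as nearest neighbor was 0% for a mean of at least 200. Their median log2 fold change ranged from -1.41 to -1.24. For TOP1MT the log2 fold change was -0.34 without Top1 KD replicate 2 and 7.7e-05 without Top1 KD replicate 1. The other genes named by rule kept their direction with a pseudocount of 5, library-size scaling, edgeR, the replicate block and without each library. Of the 47 that are falling genes, 11 moved by over 1.5 times without a Top1 KD library and 0 without a scramble library. These were STMN3, TMEM121, FAM20C, METRNL, DUSP4, MYH15, INSYN1, PALM, LRMDA, EIF3C and CFAP221 (log2 fold change -0.75 and -3.06 without Top1 KD replicate 1 and 2). FAM20C was at -1.86 and -3.68, and DHFR2, just outside the limit on the mean, was at -1.67 and -0.42 without scramble replicate 1 and 2.

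Whether libraries of the same number were made together is not given in the sources used here. The differences between replicates 1 and 2 correlated at 0.044 between scramble and Top1 KD over genes, with 2 pairs. With the replicate block 1085 genes were called, 149 of the falling genes and 11 list genes among them, as many list genes as without it. The list count was 10 or 11 with edgeR, DESeq2 (without INSIG1), library-size scaling (without ASNS), pseudocounts of 0.1 and 5 and no filter. In limma fits added after the data were seen it was 1 and 6 without scramble replicate 1 and 2, and 4 and 13 without Top1 KD replicate 1 and 2.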
